A study of Bos taurus with 32 samples.

Results

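Visceral fat was compared with subcutaneous fat in the 8 steers that were fed the control diet, on 16 of the 32 miRNA arrays of the study, chosen by their diet label. Each steer gave perirenal fat as the visceral and backfat as the subcutaneous sample, and the steer number in the sample title paired the 2 depots. The steers were Hereford × Aberdeen Angus yearlings, and the remaining 16 arrays came from 8 other steers of the same cross on a high fat diet, in which flaxseed supplied the added fat. The tissue was whole fat from the carcass, so adipocytes, vessels, blood and connective tissue were measured together, and fewer cells of a type cannot be told apart from less RNA per cell. The 8 subcutaneous samples lay on 1 slide and the 8 visceral samples on another, and both samples of a steer lay at the same position of their slides, so slide and depot cannot be told apart, nor can position and steer.

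MicroRNAs are short RNAs that guide the silencing machinery to matching sites in messenger RNAs and lower the protein made from them. In fat, miR-378, miR-103 and miR-204 are known to favour the formation of adipocytes, while miR-27 and miR-130 repress PPARG, the master transcription factor of that process. Fat depots arise from different embryonic regions, and the HOX genes that mark position along the body, with the miRNAs embedded between them, keep depot-specific levels in the adult.

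Each bovine miRNA on an array had 20 spots, and the deposited total intensity sums them after background subtraction. To compare arrays, each was scaled so that the 75th percentile of its 95 miRNAs found on all 16 arrays became 1, and the scaled intensity is reported on the log2 scale. Scaled intensities under -6.44 were set to that floor, which is the lowest detected value of a typical array (the median of the 16). Feature Extraction called 118 to 176 miRNAs detected on a subcutaneous array and 115 to 166 on a visceral one. The lowest scaled intensity called detected on an array, its detection limit, had a median of -6.75 on subcutaneous and -5.79 on visceral arrays, and the median summed intensity of the visceral arrays was 0.795 of the subcutaneous one, against a ratio of 0.900 for the labelling spike-ins and 0.991 for the local background. Of the miRNAs on the array, 462 were detected on none of the 16 arrays, 36 on 1 to 3 arrays and 174 on at least 4. Only these 174 were tested, with limma and the steer as a block.

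Arrays of 2 steers stood apart from their depot. The 8 steers on the high fat diet, separate animals on other slides, supplied a depot score, the mean scaled intensity of 33 miRNAs higher in their visceral fat minus the mean of 19 miRNAs lower in it, all detected on all 32 arrays. Among the subcutaneous control arrays, the score was -0.50 for steer 108 and -0.63 for steer 111, while the other 6 lay between -2.28 and -1.76. The visceral control arrays ranged from -0.82 to 0.15, so the subcutaneous arrays of steers 108 and 111 fell inside the visceral range by this score. Steer 108 also had visceral-like subcutaneous values of miR-196a and miR-204, whereas steer 111 did not. Over the 91 miRNAs detected on all 32 arrays, the visceral minus subcutaneous difference of a steer correlated with the mean of the other 7 at r = 0.48 to 0.79 for 5 steers, and at 0.03 for steer 108, -0.01 for steer 111 and -0.03 for steer 405. These correlations are across miRNAs of one array set, which are not independent, and are given as a description. Results are therefore given with and without the pair of steer 108.

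**Figure D1:**
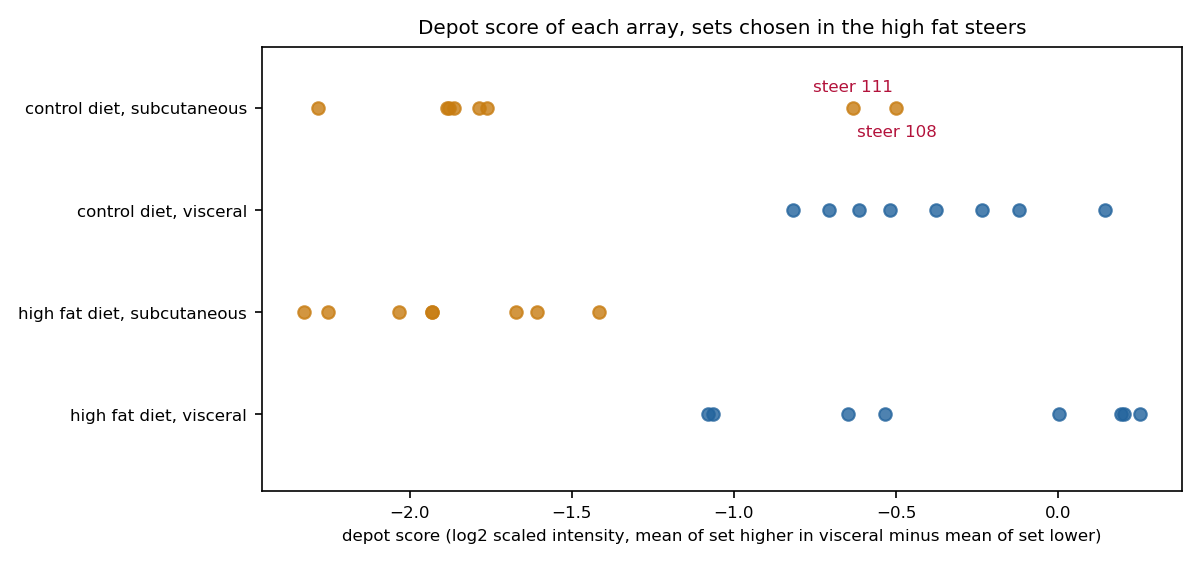
Depot score of each array (log2 scaled intensity, mean of the set higher in visceral fat minus mean of the set lower in it), one point per array. The 2 subcutaneous control arrays of steers 108 and 111 sit at -0.50 and -0.63, within the visceral control range of -0.82 to 0.15, and the other 6 lie at -1.76 or below. The sets were chosen in the high fat steers, so the separation of the high fat groups is by construction.

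Of 174 miRNAs, 10 differed between visceral and subcutaneous fat on the control diet (5.75%, limma with the steer as a block, Benjamini-Hochberg adjusted p under 0.05). Visceral fat had more of 4, miR-196a, miR-197, miR-378 and miR-181b (2.30% of those tested), and less of 6, miR-2348, miR-2902, miR-2454, miR-2291, miR-296 and miR-204 (3.45%). At an unadjusted p under 0.05 there were 45 (25.9%), 16 higher and 29 lower. The arrays of the depots did not overlap for 3 of the 174 (1.72%), miR-197, miR-214 and let-7d, of which only miR-197 passed the threshold. The median difference over all 174 was -0.01 on the log2 scale. The balance of directions depended on the scaling, since unscaled intensities gave 1 higher and 10 lower, the labelling spike-ins 1 and 4, the deposited values 2 and 7, the percentile over all miRNAs on the array 1 and 3, and normexp background correction 2 and 2. The median over all tested miRNAs was then -0.31 without scaling, -0.18 with the spike-ins, -0.34 with the deposited values and 0.21 with normexp. Normexp added an offset of 50 to each spot before the log2 step, which shrinks differences of low intensities. The 1 miRNA higher without scaling, with the spike-ins and with the percentile over all miRNAs was miR-196a. MiR-197, miR-378 and miR-181b did not pass there.

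**Figure D2:**
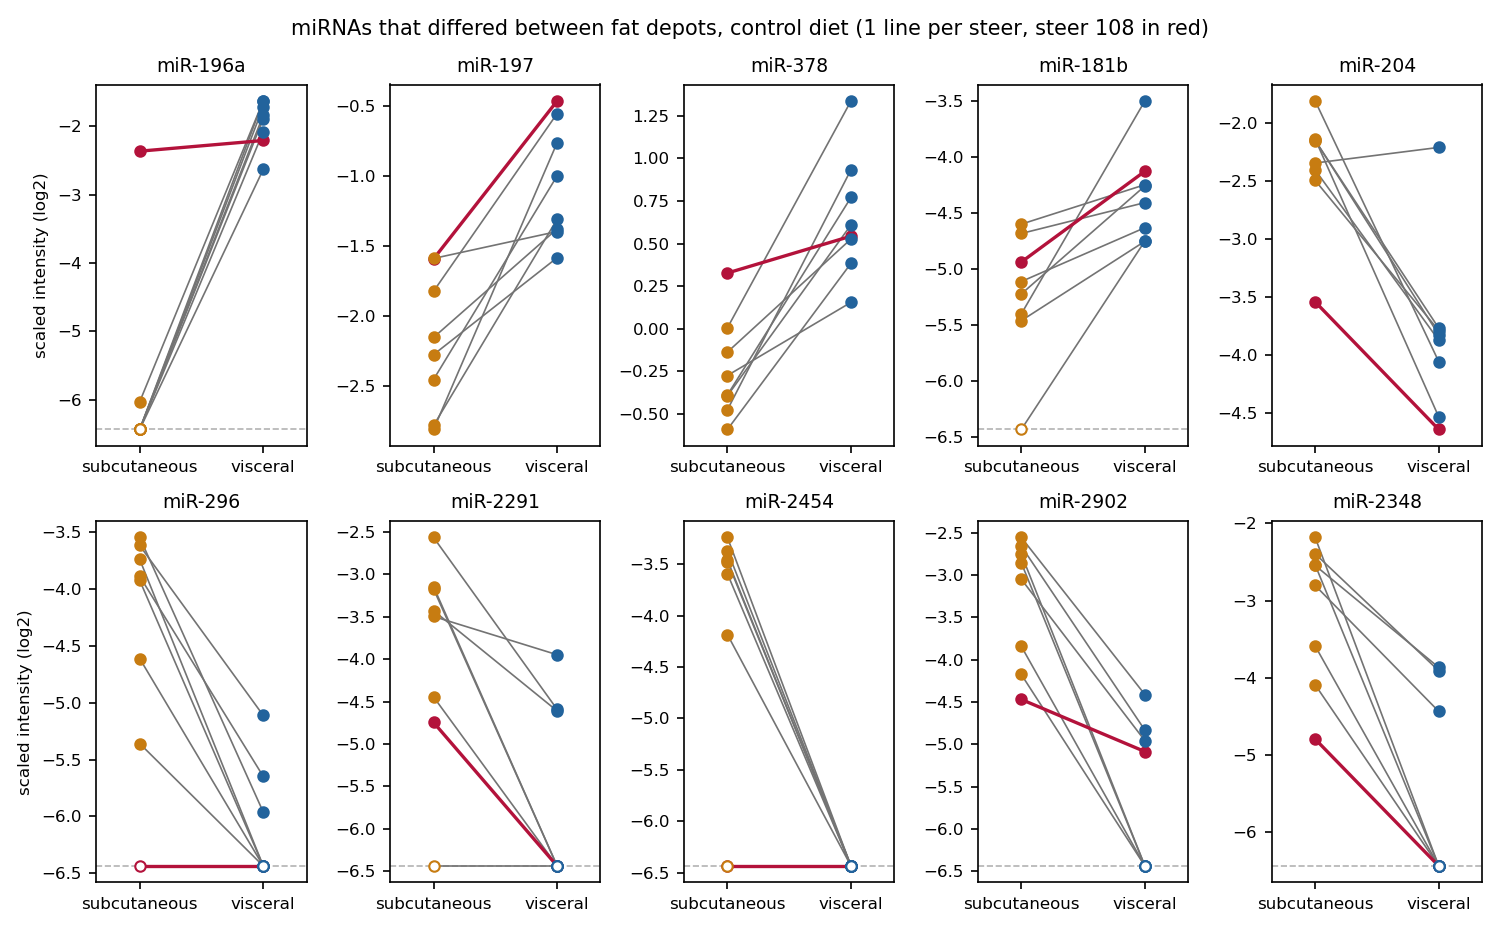
Scaled intensity (log2) of the 10 miRNAs past the threshold, with 1 line per steer joining its subcutaneous and visceral sample and steer 108 in red. Hollow points were not detected, the dashed line is the floor of -6.44, and the vertical scale differs between panels. MiR-196a of steer 108 is at visceral level in both depots.

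The largest depot difference among the 174 belonged to miR-196a, which the RefSeq gene table of the bovine genome places between HOXC9 and HOXC10 and, as a second copy, within HOXB9. It is known to repress HOX genes such as HOXC8. It was detected on all 8 visceral and 3 of 8 subcutaneous arrays. Subcutaneous arrays had scaled intensities of -6.44 at the lowest, -6.44 at the median and -2.36 at the highest, and visceral arrays of -2.63, -1.86 and -1.63. The high subcutaneous value was that of steer 108, and every other subcutaneous array lay at the floor or at -6.03, far under the visceral ones. In intensity units before scaling, steer 108 had 46.7 in subcutaneous and 30.7 in visceral fat, while the other subcutaneous arrays read 4.93 or less and the other visceral arrays 35.1 to 73.3. The difference was 3.93 (log2, standard error 0.49, 95% interval 2.84 to 5.02, limma adjusted p = 0.00241), higher in visceral fat in 8 of 8 steers, and the exact sign-flip test gave its smallest p for 8 steers, 0.00781. The size depends on the floor at which the undetected arrays were set, so no fold is given for it or for the other miRNAs undetected on some arrays. With the same floor applied to each of its 4 probes, the probes differed by 0.74 to 2.69. Without steer 108 the depots no longer overlapped, and the difference was 4.51 (standard error 0.19, adjusted p = 4.03e-07). The visceral-like miR-196a value was among the reasons to leave this steer out, so that gain follows from the choice. In steer 108 itself the difference was 0.16, against 3.81 to 4.81 in the other 7.

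MiR-197, conserved across mammals and placed by the gene table inside AMPD2, was detected on all 16 arrays. The subcutaneous arrays had scaled intensities of -2.81, -2.21 and -1.59 (lowest, median and highest) and the visceral arrays of -1.58, -1.16 and -0.47. The depots met without crossing, and all 8 steers had more in visceral fat, by 0.19 in steer 405 to 2.05 in steer 209. The difference was 1.13 (standard error 0.22, 95% interval 0.64 to 1.62, adjusted p = 0.0136), a 2.19-fold level in visceral fat. Leaving out steer 108 gave 1.13 as well (adjusted p = 0.0299). MiR-197 did not pass without scaling, with the labelling spike-ins or with the percentile over all miRNAs on the array. Nor did it pass with the deposited values or with normexp.

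MiR-378 lies in PPARGC1B, the gene of a coactivator of mitochondrial and lipid metabolism, with a second copy inside CALCR, and is known to increase fat storage in adipocytes. Subcutaneous arrays had scaled intensities of -0.59, -0.33 and 0.33, and visceral arrays of 0.16, 0.58 and 1.34. Steer 108 held the highest subcutaneous value, and without it the depots did not overlap. Its array was left out for looking visceral, so this gap is no separate support. Visceral fat had 0.90 more (log2, standard error 0.19, 95% interval 0.48 to 1.31, adjusted p = 0.0165), in 8 of 8 steers, which is 1.86-fold. Without steer 108 the adjusted p was 0.0189, and the steers ranged from 0.43 to 1.41. The shared direction of the 8 steers holds for the scaled values. Before scaling, the intensity was lower in visceral fat in steers 108, 209 and 308 and higher in the other steers. MiR-378 did not pass without scaling, with the labelling spike-ins, with the deposited values or with the percentile over all miRNAs on the array. Nor did it pass from the spot intensities or with normexp.

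MiR-181b, a member of a family known for damping inflammatory signalling in vessels and immune cells, was dim. It had scaled intensities of -6.44, -5.17 and -4.60 in subcutaneous fat, where it was undetected in steer 405, and of -4.76, -4.34 and -3.50 in visceral fat. The ranges overlapped, although each of the 8 steers had more in visceral fat. The difference of 0.90 (standard error 0.23) lay just past the threshold (adjusted p = 0.0486) and fell short of it without any single steer, with an adjusted p of 0.0673 without steer 108. MiR-181a, made from the same clusters and used by the study as its qRT-PCR reference, differed by 0.13 (95% interval -0.25 to 0.51, adjusted p = 0.701).

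Among the miRNAs lower in visceral fat, miR-204 alone was detected on all 16 arrays. It is encoded within TRPM3 and is known to repress RUNX2, a driver of bone formation, which favours adipocytes over osteoblasts. Subcutaneous arrays ran from -3.55 over a median of -2.25 to -1.81 and visceral arrays from -4.65 over -3.85 to -2.21 (log2 scaled intensity). Steer 108 had the lowest subcutaneous value and steer 405 the highest visceral one, and with these 2 arrays aside the depots did not overlap. The difference was -1.46 (standard error 0.27, 95% interval -2.07 to -0.85, adjusted p = 0.0122), a 2.75-fold level in subcutaneous fat. It was lower in visceral fat in 7 of 8 steers, the exception being steer 405 at 0.13. Without steer 108 the difference was -1.51 (standard error 0.30, adjusted p = 0.0189). MiR-204 did not pass with the labelling spike-ins, the deposited values or the percentile over all miRNAs on the array. Nor did it pass with normexp, where it differed by -0.17.

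The other 5 miRNAs lower in visceral fat were dim ones that dropped out of detection there. MiR-296, from the imprinted GNAS region and known to promote the growth of vessels, is shared among mammals, while miR-2902, miR-2348, miR-2454 and miR-2291 carry numbers given to miRNAs named in cattle and have no established function. The gene table places miR-2348 within TMC6 and miR-2454 within DNMT1, the maintenance DNA methyltransferase. MiR-2902 and miR-2291 lie between genes, beside RAMP1 and UBE2F and beside SLC28A2 and SHF.

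MiR-2348 had scaled intensities of -4.79, -2.67 and -2.18 in subcutaneous fat, where all 8 arrays detected it, and of -6.44, -6.44 and -3.87 in visceral fat, where 3 of 8 did. The difference was -2.43 (standard error 0.37, adjusted p = 0.00407), and its 2 probes, floored alike, differed by -1.64 and -1.75. MiR-2902 gave -4.47, -2.95 and -2.55 in subcutaneous and -6.44, -5.76 and -4.41 in visceral fat, detected on 8 and 4 arrays, a difference of -2.33 (standard error 0.33, adjusted p = 0.00330), with probes at -1.42 and -1.32. Both miRNAs were lower in visceral fat in 8 of 8 steers. The ranges of miR-2348 met through the low subcutaneous arrays of steers 108 and 111 and the visceral arrays of steers 308, 405 and 410, and those of miR-2902 through subcutaneous steer 108 and visceral steer 410 alone. Without steer 108 the differences were -2.58 for miR-2348 (adjusted p = 0.00454) and -2.61 for miR-2902 (adjusted p = 7.69e-04), and the depots of miR-2902 no longer overlapped.

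For miR-296, miR-2454 and miR-2291 some arrays of the brighter depot were also undetected. MiR-296 was detected on 7 subcutaneous and 3 visceral arrays, at medians of -3.90 and -6.44 (adjusted p = 0.00911). MiR-2454 was detected on 6 subcutaneous arrays, at a median of -3.53, and on 0 visceral arrays (adjusted p = 0.0149), and its 2 undetected subcutaneous arrays were those of steers 108 and 111. MiR-2291 was detected on 7 and 3 arrays, at medians of -3.46 and -6.44 (adjusted p = 0.0227). Every steer in which either depot had a value above the floor had the higher value in subcutaneous fat, 7, 6 and 7 steers respectively. Without steer 108 the adjusted p was 0.00114, 0.00454 and 0.0447. With normexp background correction, which adds an offset of 50 to each spot, the differences of all 5 dim miRNAs shrank to between -0.15 and 0.06, and 0 of them passed. Such an offset shrinks log2 differences of low intensities, and its part in the loss of these 5 calls was not tested.

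These 5 miRNAs moved together across arrays. Over the 16 arrays their scaled intensities correlated at r = 0.57 to 0.88 over the 10 pairs, with a median of 0.79, while miR-204 correlated with them at 0.12 to 0.41. The points share the arrays and the depot difference, so this is a description. The 5 were chosen on these arrays for being lower in visceral fat, and they share 1 floor value on many visceral arrays. Both raise r, and miR-204, detected on all 16 arrays, is not a like comparison. In subcutaneous fat, 6 steers had all 5 miRNAs detected and steers 108 and 111 had 3. In visceral fat, steers 308, 405 and 410 had 4 of the 5, steer 108 had 1 and the other 4 steers had 0. Those 3 visceral arrays lay at positions 6 to 8 of the slide and those of steers 108 and 111 at positions 1 and 2, and the part of position in this pattern was not tested within the control diet, where it cannot be told apart from the steer. On the high fat diet all 8 subcutaneous arrays had the 5 miRNAs detected, and the visceral arrays with 4 or 5 of them were those of steers 202, 302 and 411, at positions 3, 5 and 7.

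**Figure D3:**
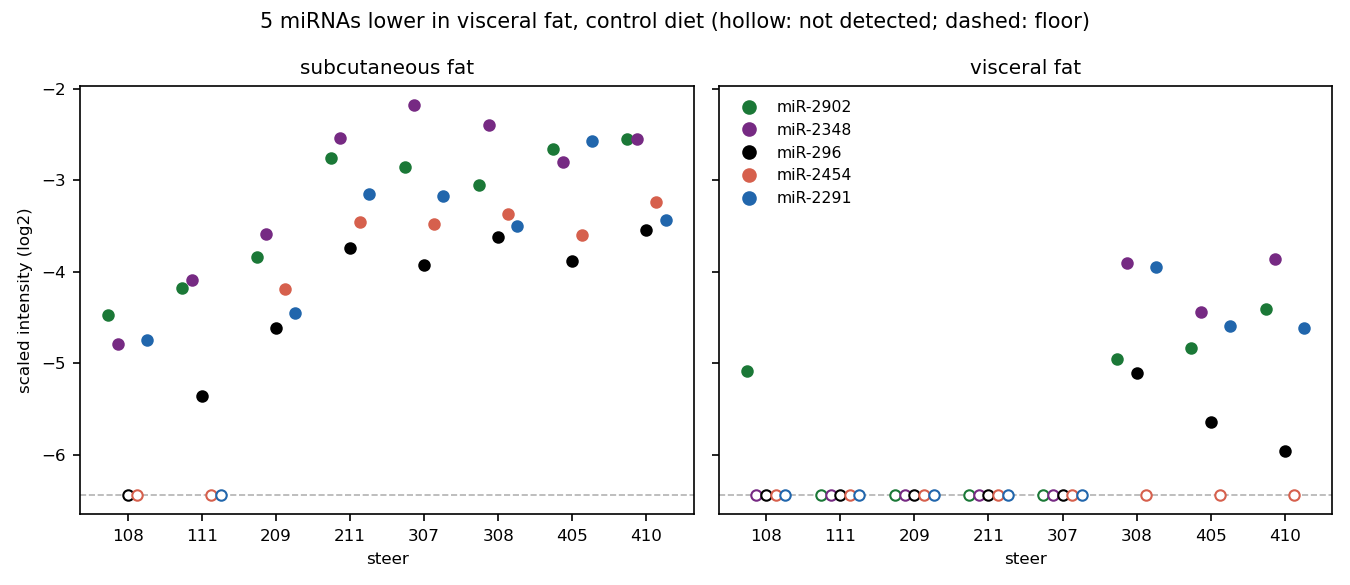
Scaled intensity (log2) of 5 miRNAs lower in visceral fat, by steer, in subcutaneous (left) and visceral fat (right) on the control diet. Hollow points on the dashed floor were not detected. In visceral fat the detected values belong to steers 308, 405 and 410, apart from miR-2902 in steer 108, and miR-2454 is undetected on all 8 visceral arrays.

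Leaving out the pair of steer 108 changed the list more than the sizes. Of 172 miRNAs tested in 7 steers, 13 differed (7.56%), 4 higher (2.33%) and 9 lower (5.23%) in visceral fat, and 9 of the 10 named above were among them, the exception being miR-181b. At an unadjusted p under 0.05 there were 44 (25.6%), and the depots did not overlap for 6 miRNAs (3.49%). The 4 that passed only then were miR-2304, higher in visceral fat, and miR-2328*, miR-2305 and miR-2316, lower in it. All 4 carry cattle numbers without an established function. Steer 108 was left out because its subcutaneous array looked visceral, so clearer separation without it is partly built in and is no separate support.

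MiR-2304 was detected on 6 of 8 visceral arrays and on 1 subcutaneous array, that of steer 108, where it reached -1.72. Its visceral values had a median of -3.06 and a highest value of -0.41 in steer 307, and steers 308 and 405 were undetected in both depots. The other 7 subcutaneous arrays all lay at the floor, so the array of steer 108 stood alone in its depot here as it did for miR-196a. The adjusted p was 0.111 with steer 108 and 0.0447 without.

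The 3 lower ones were detected on all 16 arrays. MiR-2328* had scaled intensities of 1.56, 2.70 and 3.17 in subcutaneous and of 0.61, 1.19 and 1.89 in visceral fat, a difference of -1.22 (standard error 0.33, adjusted p = 0.0583) that became -1.42 (adjusted p = 0.0299) without steer 108. MiR-2305 went from 2.16, 3.38 and 3.83 to 1.28, 1.86 and 2.76, with a difference of -1.09 (adjusted p = 0.106) and -1.29 (adjusted p = 0.0497) without steer 108. MiR-2316 had -3.04, -1.53 and -1.02 against -2.89, -2.61 and -1.99, with -0.81 (adjusted p = 0.128) and -1.03 (adjusted p = 0.0497). For each of the 3, steers 108 and 111 had a higher value in visceral fat and the other 6 a lower one.

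In the steers on the high fat diet, scaled and floored among themselves and tested the same way, 100 of 249 miRNAs differed between depots (40.2%), 52 higher (20.9%) and 48 lower (19.3%) in visceral fat. An unadjusted p under 0.05 was reached by 49.0%, and the depots did not overlap for 20 (8.03%). All 10 miRNAs of the control diet were tested there, all 10 had the same direction, and 9 passed the threshold. MiR-196a differed by 4.56 (standard error 0.19, adjusted p = 1.74e-07), with subcutaneous arrays at -6.98 to -6.08 and visceral arrays at -2.47 to -1.34, and no array crossed. MiR-378 differed by 1.62 and miR-197 by 1.44, and the depots overlapped for neither. MiR-181b differed by 0.54 and miR-204 by -0.87. MiR-2348, miR-296, miR-2902 and miR-2454 again fell out of detection on 4, 5, 6 and 2 of the 8 visceral arrays. MiR-2291 was the miRNA that did not pass, at -0.64 (95% interval -1.89 to 0.60, adjusted p = 0.357).

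Of the 4 miRNAs that passed only without steer 108, miR-2328* and miR-2305 differed on the high fat diet by -1.23 and -1.21 (adjusted p = 0.00827 each), and miR-2316 was lower in visceral fat in 6 of 8 steers (adjusted p = 0.0202). MiR-2304 differed by 0.53 (adjusted p = 0.537), detected on 5 subcutaneous and 4 visceral arrays. Across the 170 miRNAs tested on both diets, 132 had the same direction, and the differences correlated at r = 0.82 (Spearman 0.76) across miRNAs, which share arrays and are not independent. The test of the difference between the diets, on the within-steer differences, called 0 of the 170, with limma and with either floor, and 10 at an unadjusted p under 0.05. About as many would pass that unadjusted limit by chance alone. MiR-378 was among those 10, with a depot difference larger by 0.72 on the high fat diet (unadjusted p = 0.0101, adjusted p = 0.286).

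**Figure D4:**
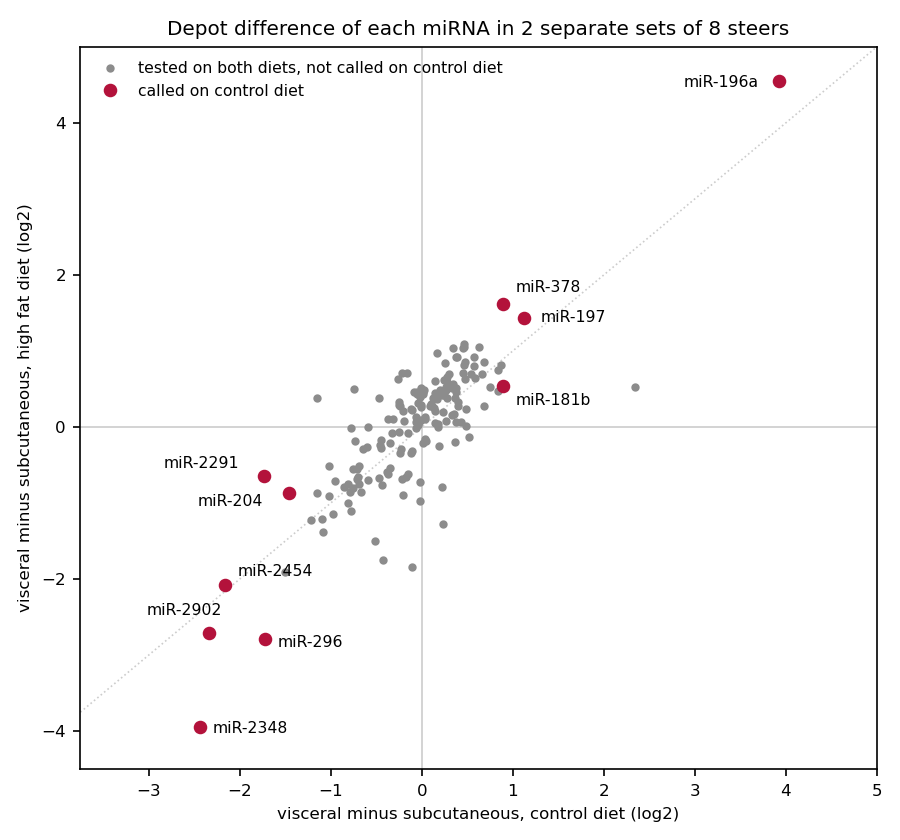
Visceral minus subcutaneous difference (log2) of 170 miRNAs in the 8 control steers (horizontal) and the 8 high fat steers (vertical), one point per miRNA, with the 10 past the threshold on the control diet in red and the diagonal dotted. All 10 have the same sign on both diets, and miR-196a is at 3.93 and 4.56.

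The miRNA families were examined by their counts and medians, beside a median of -0.01 for all 174 miRNAs tested. Of the HOX cluster miRNAs, 3 of 5 were tested and miR-196a was the 1 past the threshold. MiR-10a, from the HOXB cluster, had medians of -4.31 in subcutaneous and -3.40 in visceral fat and a difference of 0.63 (adjusted p = 0.381), and miR-10b differed by 0.17 (adjusted p = 0.792). On the high fat diet miR-10a passed, at 1.06 (adjusted p = 0.00153). Among miR-378, miR-103 and miR-107, which favour adipocyte differentiation, only miR-378 passed, and miR-103 and miR-107 differed by 0.24 and 0.37 (adjusted p = 0.508 and 0.400). The PPARG-targeting miR-27 and miR-130 had 0 of 3 past the threshold and a median of -0.25. It was -0.03 without steer 108, 0.24 from the spot intensities and 0.14 with normexp, where that of all tested miRNAs was 0.21. MiR-204 was the tested member of the pair with miR-211, and miR-224, known from adipocyte metabolism, differed by -0.79 (adjusted p = 0.188) and by 0.16 with normexp.

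Of the brown fat miRNAs miR-193, miR-365 and miR-455, 4 were tested and 0 passed. MiR-193a-5p differed by 0.83 (adjusted p = 0.123) and miR-365-3p by 0.58 (adjusted p = 0.206), while miR-455* differed by -0.78 (adjusted p = 0.154). The members did not share a direction. The larger families of fat tissue had 0 members past the threshold. Their medians were 0.18 over 9 let-7 miRNAs, -0.00 over 6 of the miR-30 family, 0.37 over 3 of the miR-29 family, 0.09 over 2 of the miR-26 family, -0.26 over 6 of the miR-15/16 family, 0.37 over 8 of the miR-17-92 cluster and its paralogs, -0.32 over 5 of the miR-23/24/27 clusters, -0.21 over 5 of the miR-99, miR-100 and miR-125 families, -0.13 over 2 of the miR-148 family and 0.20 over 6 of the imprinted DLK1-DIO3 cluster. Several of these small medians turned with the samples or the scaling. Without steer 108 those of miR-148 and miR-30 turned, to 0.25 and 0.09. Those of miR-26, miR-15/16 and DLK1-DIO3 kept their sign, at 0.26, -0.12 and 0.11. Without scaling those of let-7, miR-29, miR-26 and DLK1-DIO3 were -0.20, -0.04, -0.30 and -0.05. The let-7 and miR-26 medians were also below 0 with the spike-ins and the deposited values, the miR-26 median with the percentile over all miRNAs on the array and the DLK1-DIO3 median with the deposited values. With normexp those of miR-15/16, miR-30 and miR-148 were above 0, beside a median of 0.21 over all tested miRNAs. That of miR-30 was also above 0 after quantile normalization and that of miR-148 from the spot intensities. Of miR-34 and miR-449, miR-34a was tested and differed by 0.03, with a sign that also turned.

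The miR-199 and miR-214 miRNAs, made in fibroblasts and other connective tissue cells, had differences of -1.15 to -0.75 in the 5 tested forms, with a median of -0.95. Steer 405 went the other way for the miR-199 forms, by 0.89 to 1.52, while miR-214 was lower in visceral fat in every steer. The forms share arrays and are not independent. All 5 had an unadjusted p under 0.05, which 25.9% of all tested miRNAs had, and 0 passed after adjustment, with adjusted p from 0.0745 to 0.154. MiR-214 had scaled intensities of -0.43, 0.05 and 0.66 in subcutaneous and of -1.27, -0.48 and -0.45 in visceral fat, and its depots did not overlap. All 5 passed the threshold in the high fat steers, where 40.2% of all tested miRNAs did, with a median of -0.75. The direction held for all 5 under every scaling tried and from the spot intensities. With normexp background correction 2 of 5 were positive and the median was -0.02, beside 0.21 over all tested miRNAs.

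Markers of other cell types in the fat were compared on the same arrays. The summed scaled intensity, not on the log scale, of the miR-199 and miR-214 forms was 1.55 to 2.92 in subcutaneous and 1.05 to 2.19 in visceral fat. That of the endothelial miR-126, miR-126*, miR-221 and miR-222 was 0.620 to 1.58 and 0.916 to 2.50, and that of the smooth muscle miR-143 and miR-145 was 0.772 to 1.98 and 1.40 to 2.83. Each pair of ranges overlapped. MiR-126 differed by 0.67 (adjusted p = 0.212), miR-145 by 0.57 (adjusted p = 0.176) and miR-221 by -0.70 (adjusted p = 0.106), and 0 of the 5 vascular miRNAs tested passed. The red blood cell sum was 0.115 to 0.201 in subcutaneous and 0.197 to 0.379 in visceral fat, with miR-486 at 0.69 (adjusted p = 0.0892) and miR-451 at 0.03, and the white blood cell sum was 0.165 to 0.478 and 0.185 to 0.413, with miR-142, miR-146a, miR-146b and miR-150 undetected on all 16 arrays. The part of vessels, blood and connective tissue in the 10 depot differences was not tested.

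Of the muscle miRNAs miR-133b alone was tested, detected on 3 arrays of each depot with a difference of 0.25, while miR-208a, miR-208b and miR-499 were on none. The 6 epithelial miRNAs were detected on 0 of 16 arrays, as were the 3 kidney-enriched miR-192, miR-194 and miR-215, although the visceral fat came from around the kidney. The liver miRNA miR-122 was called on 1 visceral array, that of steer 307. On the high fat diet, miR-192 and miR-194 were tested and were higher in visceral fat by 0.86 and 0.67 (adjusted p = 0.0136 each).

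MiRNAs with the high numbers given to those first named in cattle made up 304 of the miRNAs on the array and 50 of the 174 tested, a list added after the values had been seen. Visceral fat had less of 4 of them, miR-2348, miR-2902, miR-2454 and miR-2291, and more of 0, against 3.45% lower and 2.30% higher among all tested. Without steer 108, 7 of 49 were lower and 1 was higher, against 5.23% and 2.33%. Their median difference was -0.29, and it was 0.19 with normexp, where that of all tested miRNAs was 0.21. In the high fat steers 58 were tested, of which 10 were higher and 19 lower, against 20.9% and 19.3% of all tested.

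**Figure D5:**
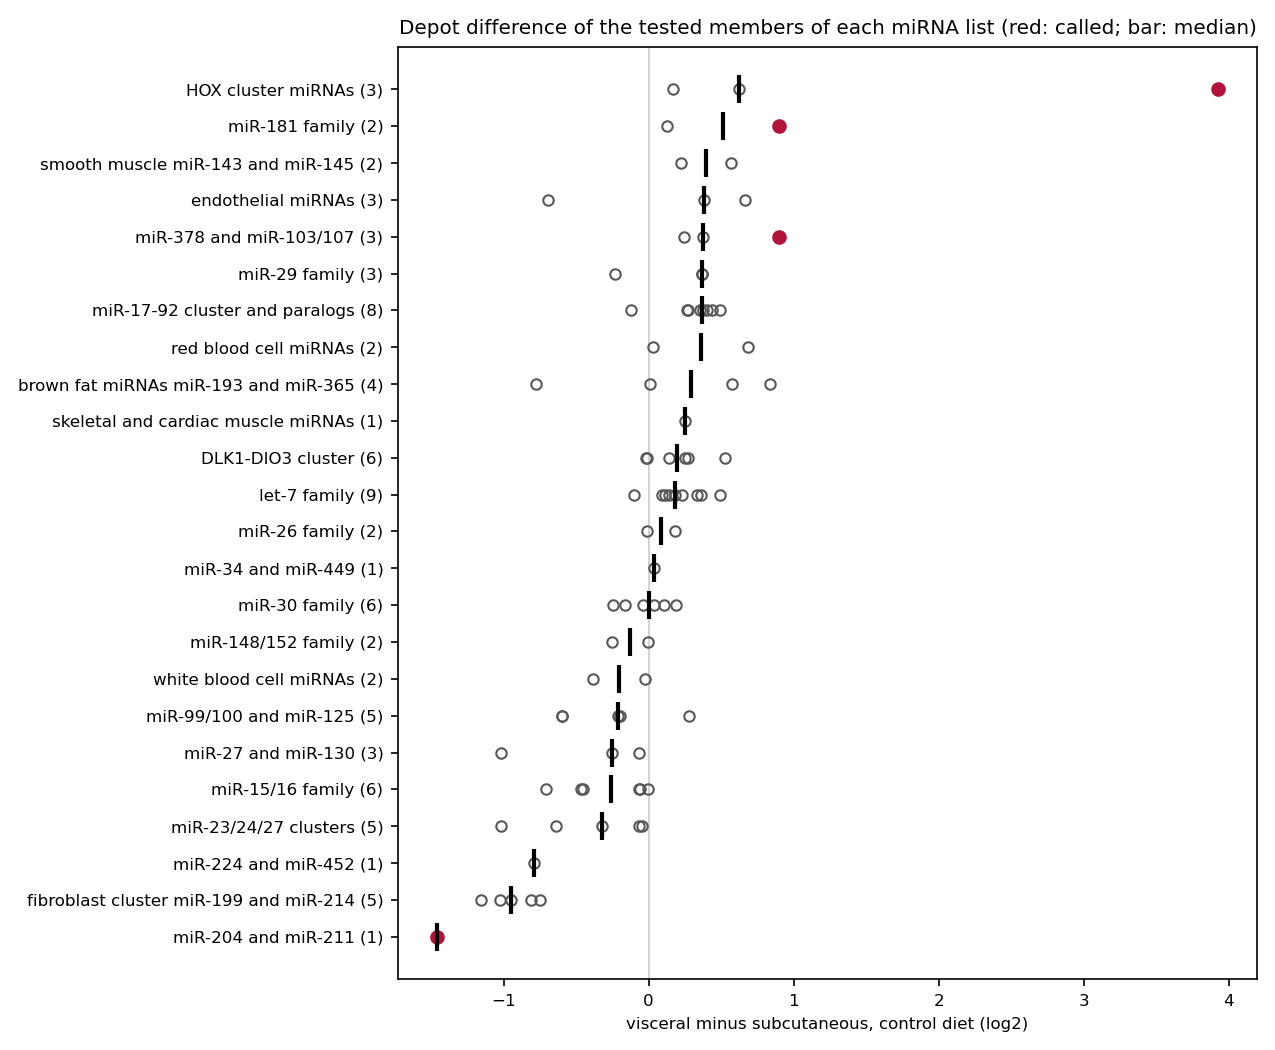
Visceral minus subcutaneous difference (log2) of the tested members of each miRNA list on the control diet, with 1 point per miRNA, the number tested in brackets and the median as a bar. Filled red points passed the threshold. The miR-199 and miR-214 members all lie between -1.15 and -0.75, and none of them is filled.

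Detection calls gave a similar count of miRNAs in both depots when any array counted, but fewer in visceral fat at a stricter limit. Counting any array, the depots shared 179 miRNAs, while 16 were seen on subcutaneous arrays alone and 15 on visceral arrays alone. With at least 4 arrays of a depot required, 132 miRNAs met the limit in both depots. It was met by 23 among the subcutaneous but not the visceral arrays, and by 3 the other way round. These miRNAs were not all absent from the other depot, since miR-196a was still detected on 3 subcutaneous arrays. Steer by steer, the number detected on the visceral minus the subcutaneous array averaged -12.9, with fewer in visceral fat in 6 of 8 steers, and the two-sided exact sign-flip test gave p = 0.242. Without steer 108 the mean was -10 (exact p = 0.391), and without steer 405 it was -20.9 (exact p = 0.0469). The largest contrasts in detection were miR-2356, miR-2436-5p and miR-2454, each on 6 subcutaneous and 0 visceral arrays, and, in the opposite direction, miR-196a (3 and 8), miR-2304 (1 and 6) and miR-664 (1 and 5), named here after their values were seen. The higher detection limits of the visceral arrays, given above, move with these counts, and their part was not tested.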

How the data were processed

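Total RNA was labelled with Cy3 and hybridized to 1-colour Agilent bovine miRNA arrays, 1 per sample. Per the file headers, each scan was extracted with Feature Extraction 10.7.3.1, and the authors deposited intensities, background subtracted and summed per miRNA, unscaled between arrays, with 0.1 for an undetected miRNA. The authors also deposited log2 values normalized to the 75th percentile, which list features by number. They were matched to miRNAs by value (244 of 244) and used as an alternative.

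Total intensities were scaled, floored and filtered as the report states and fitted with limma 3.58.1 (R 4.3.3, lmFit and eBayes, steer as a fixed block, two-sided, Benjamini-Hochberg). Number of arrays and, for dim miRNAs, detection limits set the precision. The block was used because both depots came from the same animal by the titles. The deviations of a steer's 2 arrays from their depot means correlated negatively in 7 of 8 steers (-0.44 to -0.10). In steer 308 they correlated at 0.60. These correlations run across miRNAs of whole arrays and were not set against mismatched pairs, so they cannot decide on pairing. The methods' t-test was unpaired, with Bonferroni correction.

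Named are all miRNAs past the threshold, those past it only without steer 108, the depot miRNAs and reference of the study, and list members. Members and lists were chosen with earlier results of these data known. The fit was tested on simulated data. Gene neighbourhoods come from the RefSeq table (ARS-UCD2.0), in which all 15 named miRNAs were found. The arrays' probe design used another build, so no coordinates are given.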

Additional observations from a re-analysis of the deposited data

Results flagged for a closer look

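In 35 groups of 8 arrays (the named miRNAs, the number detected, the summed intensity and the depot score, in each depot), 5 values lay farther from the nearest other array than Dixon's 95% limit allows. Chance flags about 1 in 20 groups of values that were not chosen for it. That rate cannot be set against these flags, because steer 108 was already known to stand apart and miR-2304 was named for passing only without it. Of the 5, 3 belonged to the subcutaneous array of steer 108, with miR-196a at -2.36 (next highest -6.03), miR-2304 at -1.72 (all others at the floor of -6.44, so that any value above it would be picked out) and miR-204 at -3.55 (next lowest -2.50). The visceral array of steer 405 had miR-204 at -2.21, with the next highest at -3.77. The subcutaneous array of steer 405 had miR-181b at the floor of -6.44, undetected, with the next lowest at -5.46.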

How the results depend on the processing

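MiR-196a kept its direction and passed the threshold under all 28 alternatives that gave it a value, with differences of 0.82 to 4.67. MiR-2902 did so under 27 of 28, miR-2348 under 26 of 28, miR-296 under 24 of 28, miR-2454 under 24 of 27, miR-197 and miR-204 under 24 of 29, miR-378 under 21 of 29, miR-2291 under 17 of 28 and miR-181b under 7 of 28. These counts hide single alternatives that removed many calls. The most were lost with normexp and its offset of 50, under which 1 of the 10 was kept. The differences were then -0.05 for miR-2902, -0.15 for miR-2348, -0.01 for miR-2454, -0.007 for miR-296 and -0.17 for miR-204. The percentile over all miRNAs on the array kept 4 of the 10, the methods' t-test with Bonferroni correction 4 and the spike-ins 5. MiR-2291 alone reversed, to 0.056 with normexp, and the cause was not tested.

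Without the replicate block, 10 miRNAs were higher and 9 lower, all 10 named ones among them, and with the steer as a random block 3 were higher and 8 lower, with 8 of the 10 kept. A fit of 4 groups on 32 arrays, without the block, gave 16 higher and 28 lower, and the methods' t-test gave 10 higher and 9 lower with Benjamini-Hochberg adjustment, and 3 higher and 1 lower with Bonferroni correction. The numbers higher and lower were 1 and 3 with the percentile over all miRNAs on the array, 1 and 10 without scaling, 1 and 4 with the labelling spike-ins, 2 and 2 with normexp, 2 and 7 with the deposited values, and 2 and 2 among the 95 miRNAs detected on all 16 arrays, where fewer were tested. Leaving out 1 steer at a time gave 2 to 9 higher and 4 to 11 lower. Without steer 405 there were 9 and 11, without steer 211 2 and 4, and without steer 410 2 and 6. The number detected per array differed by -20.9 to -7.29 when steers were left out, and passed the threshold only without steer 405 (-20.9, exact sign-flip p = 0.0469). Of the 10 miRNAs, 9 passed on the high fat diet under the block. Dim miRNAs are limited by the detection limits of the arrays, which ranged from -7.29 to -4.86.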
